A study of Mus musculus with 8 samples.

Results

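The miR-200 family was measured in lung, kidney, liver and heart of male ICR mice by DNA chip. Its probes were chosen by name, as those for mmu-miR-200a, mmu-miR-200b, mmu-miR-200c, mmu-miR-141 or mmu-miR-429. Of 200 miRNA probes on the chip, 4 met that rule, those of mmu-miR-200a, mmu-miR-200b, mmu-miR-200c and mmu-miR-141. The mice, an outbred stock with no transgene or treatment given in the labels, were 1 month old (young) or 14 months old (elderly). Each tissue was hybridized to 1 chip per age, so that 8 chips were compared in all. No label says if 1 mouse of each age gave all 4 tissues. There are no replicates within a tissue and age, and a difference between ages in 1 tissue therefore has no test.

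The miR-200 family is a group of closely related miRNAs that mark epithelial cells. Its best known targets are Zeb1 and Zeb2, transcription factors that silence E-cadherin, and these factors in turn repress the miR-200 genes. Lung and kidney contain extensive epithelia of airways, alveoli and renal tubules. Heart is made mainly of cardiomyocytes, fibroblasts and endothelial cells, and liver mainly of hepatocytes, with bile ducts as a small part.

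The sequences show how much the members resemble each other, which bears on every probe signal below. They are the mature 3p arms in RefSeq (GRCm38.p6), printed 5′ to 3′ with the seed (bases 2 to 8) in capitals, and all 4 members were matched.

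mmu-miR-200a: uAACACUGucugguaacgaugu
mmu-miR-141: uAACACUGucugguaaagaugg
mmu-miR-200b: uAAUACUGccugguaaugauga
mmu-miR-200c: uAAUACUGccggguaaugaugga

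The seeds of the first pair and the second pair differ by 1 base, C4U from miR-200a to miR-200b, counted from the 5′ end. Within each pair, 20 of the first 22 bases are identical. The substitutions are C17A and U22G from miR-200a to miR-141, and U11G and A22G from miR-200b to miR-200c. Between the pairs 17 or 18 of 22 bases are identical. How far each probe separates the members was not tested. No other miRNA on the chip matched by name in RefSeq carries either seed. In RefSeq, the only other mouse miRNA with 1 of these seeds is miR-429, which was not analysed here.

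The pairs that share a seed do not lie together in the genome. Mir200a (chr4:156054896-156054985) and Mir200b (chr4:156055681-156055750) stand with Mir429 on the minus strand of chromosome 4, within 1846 bases. Mir141 (chr6:124717914-124717985) and Mir200c (chr6:124718322-124718390) stand on the minus strand of chromosome 6, within 477 bases. The gene table places 1 other gene, Gm13648, across the chromosome 4 cluster and none across the chromosome 6 cluster. Each cluster thus carries 1 measured member of each seed.

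The chips differed in brightness. The summed intensity after background subtraction was between 3316 units (young liver) and 36448 units (elderly lung), and 53 and 57 miRNAs reached the detection limit of 10 units on the liver chips against 88 to 110 on the others. The defining miRNAs of liver and heart followed the labels. The hepatocyte miRNA miR-122a was at 1193 and 1973 units in liver and at most 5.71 units elsewhere, and the cardiac miRNA miR-1 was at 3325 and 2503 units in heart and at most 48.2 units elsewhere.

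All 4 members had clear signals in lung and kidney and signals near or below the detection limit in liver and heart. The limit was reached by 16 of 16 member values in lung and kidney and by 1 of 16 in liver and heart. Intensities in units after background subtraction and before scaling are given first, young and then elderly. The miR-200a intensity was 157 and 196 in lung, 191 and 175 in kidney, 9.25 and 4.23 in liver, and 10.2 and 3.71 in heart. Its lung and kidney values lay close together, and the young heart value was the single one of heart and liver above the limit. The miR-200b intensity was 130 and 171 in lung, 143 and 138 in kidney, 8.42 and 3.19 in liver, and 7.88 and 5.80 in heart. Its lung and kidney values overlapped, as did those of liver and heart. The miR-141 intensity was 124 and 179 in lung, 56.7 and 57.8 in kidney, 1.42 and 0.966 in liver, and 5.70 and 3.73 in heart. Both lung values of miR-141 lay above both kidney values. The miR-200c intensity was 84.6 and 123 in lung, 41.1 and 34.9 in kidney, 2.64 and 2.02 in liver, and 3.5 and 1.68 in heart. It likewise had both lung values above both kidney values. For all 4 members, the lung and kidney values lay above those of liver and heart with no overlap, as they did for 19 of the 112 miRNAs tested below (17%), on chips that differed in brightness. In bulk tissue, fewer cells that carry a miRNA and less of it per cell cannot be told apart.

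**Figure D1:**
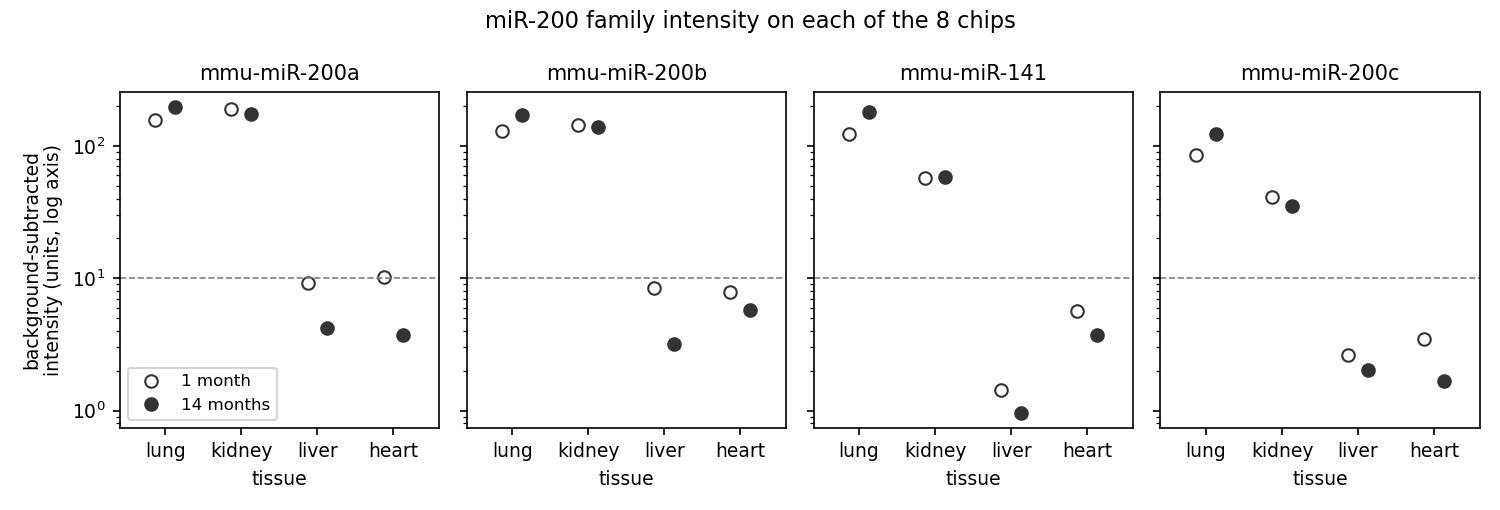
Background-subtracted intensity (units, log axis) of each member on the 8 chips, by tissue, with open points for 1 month and filled points for 14 months; the dashed line is the detection limit of 10 units. Lung and kidney points lie between 34.9 and 196 units, and liver and heart points between 0.966 and 10.2 units.

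The place of a member among the 200 probes of its own chip does not depend on scaling between chips. The miR-200a probe ranked 36 and 37 in young and elderly lung and 24 and 31 in kidney, against 56 and 82 in liver and 99 and 116 in heart. The miR-141 probe ranked 44 and 39 in lung and 47 and 48 in kidney, but 165 on both liver chips and 113 and 115 in heart. For miR-200b the ranks were 42 and 41 in lung, 32 and 35 in kidney, 61 and 99 in liver, and 105 and 103 in heart. For miR-200c they were 58 and 52 in lung, 57 and 61 in kidney, 115 and 122 in liver, and 132 and 149 in heart. Each probe thus stood higher on all 4 lung and kidney chips than on any of its liver and heart chips, which held for 9 of the 112 miRNAs tested (8.04%).

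The family was next compared between lung and kidney on one side and liver and heart on the other. The 8 chips were quantile-scaled, signals under the limit were raised to 10 units, and tissue and age were fitted to the log2 values in limma. Of 112 miRNAs tested, 30 (26.8%) were higher in lung and kidney, 24 were lower, and the median log2 difference over all of them was 0.12. The 4 members were among those called and had the 4 largest differences of the 112, while the next, that of miR-497 (named for this place), was 1.57. The log2 difference was 3.06 (standard error 0.28, adjusted p = 0.00248 from limma) for miR-200a and 2.95 (standard error 0.41, adjusted p = 0.00727 from limma) for miR-200b. It was 2.97 (standard error 0.10, adjusted p = 4.18e-05 from limma) for miR-141 and 2.24 (standard error 0.12, adjusted p = 0.000307 from limma) for miR-200c. The number of calls over all miRNAs depended on the scaling, with 85 higher and 7 lower without scaling (median log2 difference 1.28), 18 and 26 with median scaling (median -0.17), and 41 and 20 with scaling to the 75th percentile. Under each of these 3, the members kept the 4 largest differences and were called, at 1.35 to 2.87 above the median of all miRNAs without scaling. The members passed the filter on dim miRNAs through lung and kidney, where they are high. For miR-141 and miR-200c all 4 liver and heart values stood at the limit after scaling, so that the size of their differences depends on that limit and their standard errors leave out the spread of those chips.

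**Figure D2:**
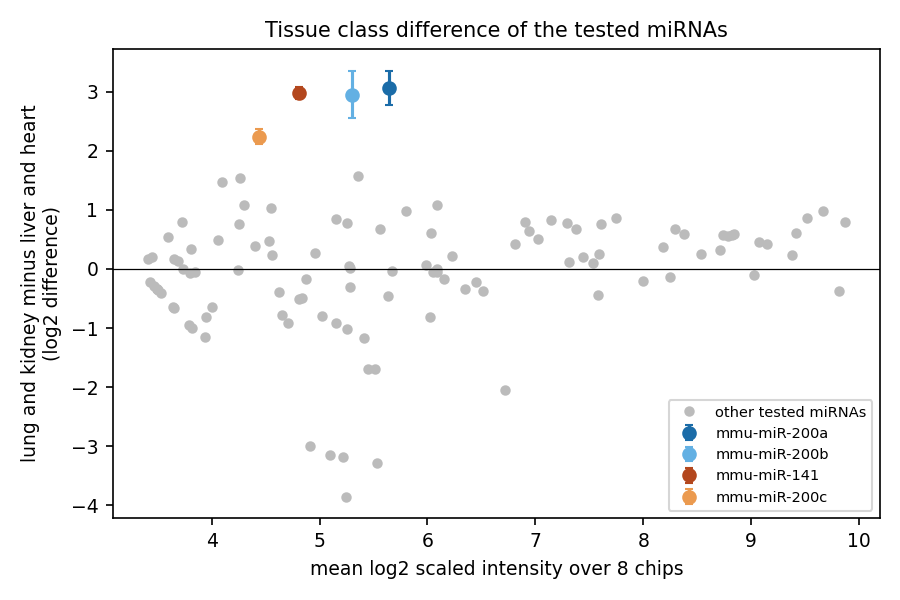
Log2 difference between lung and kidney and liver and heart (y axis) against the mean log2 scaled intensity over the 8 chips (x axis) for the 112 miRNAs tested; bars on the members are standard errors from limma. The 4 members, at 2.24 to 3.06, lie above all other miRNAs, which reach at most 1.57.

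These p-values treat the 4 tissues as fixed and measure the spread between chips. When the class of tissue replaced tissue in the fit, the 4 lung and kidney chips acted as replicates of one class. The 4 liver and heart chips acted as replicates of the other, and the 2 chips of a tissue counted as independent, which they are not. In that fit, 4 of 112 miRNAs (3.57%) were higher and 0 lower in limma (without adjustment, 7 and 4 at p under 0.05). The 4 were the members (adjusted p = 0.0214 for miR-200a, 0.0189 for miR-200b, 0.000385 for miR-141 and 0.00140 for miR-200c from limma). With tissue as a random block in that fit, miR-141 alone passed (adjusted p = 0.0153 from limma), and the values for miR-200c, miR-200a and miR-200b were 0.0776, 0.388 and 0.849. In both fits the liver and heart values of miR-141 and miR-200c all stood at the limit. Their p-values thus leave out the spread of those chips and depend on the limit. In the fit with tissue, miR-200b was not called without the young heart chip (adjusted p = 0.0507), without both kidney chips (0.0573) or without both heart chips (0.0526), with differences of 2.77, 2.60 and 2.45. After scaling, all 4 lung and kidney chips lay above all 4 liver and heart chips for 8 of 112 miRNAs (7.14%), which were the 4 members, let-7c, miR-26a, miR-30a-3p and miR-361. The other 4 of these are named because they met that condition, after their values were seen. Their log2 differences, between 0.17 and 0.97, were smaller than that of any member. An exact permutation test over the chips, again counted as independent, gave p = 0.0286 (two-sided) for each member, the smallest that 4 chips against 4 allow. Values without overlap always give that p, so the test adds nothing to the lack of overlap. With tissues as units p was 0.333, the smallest that 2 tissues against 2 allow.

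Each high tissue was then set against each low tissue. In the same fit, all 4 members were higher in lung than in heart, where 15.2% of 112 miRNAs were higher, and in kidney than in heart, where 19.6% were. All 4 were also called higher in lung than in liver (32.1% of 112) and in kidney than in liver (21.4%). The calls over liver use signals that were all under the limit there before scaling. The call of miR-200c in kidney over liver depends on them. Its kidney signal of 43.4 scaled units lay below the 56.4 and 46.7 units to which scaling raised 10 units on the liver chips. Over heart, the fold was at least 11.5 in lung and 19.5 in kidney for miR-200a, at least 8.92 and 14.4 for miR-200b, at least 9.02 and 7.30 for miR-141, and at least 5.32 and 4.49 for miR-200c. These bounds put the dim chips at the lowest scaled signal of a probe that reached 10 units before scaling, or at the member's own signal where that was higher. For miR-200a, 1 of the 2 heart chips had measured it before scaling.

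The liver chips allow much weaker bounds, because scaling raised a signal of 10 units there to 56.4 units on the young and 46.7 units on the elderly chip. Over liver, the fold was at least 2.16 in lung and 3.67 in kidney for miR-200a, at least 1.68 and 2.72 for miR-200b, and at least 1.70 and 1.37 for miR-141. For miR-200c no fold can be given in kidney, and the lung signal equalled the bound. The measured scaled liver signals were lower than that bound for all members, with a mean of 33.8 units for miR-200a, 24.0 for miR-200b, 3.94 for miR-200c and 1.30 for miR-141. Before scaling, the bounds over liver were at least 10.2 to 17.5 in lung and 3.78 to 18.3 in kidney, without allowance for the dimmer liver chips.

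Between liver and heart, where 57.1% of 112 miRNAs differed, miR-200a was called higher in liver (log2 difference 1.59, standard error 0.40, adjusted p = 0.0271 from limma). That call rests on signals of 9.25 and 4.23 units before scaling, below the limit, and was lost when the limit was also set before scaling (log2 difference 0, adjusted p = 1), an alternative chosen after seeing the data. The other members were not called between these tissues. The order of the 2 low tissues was therefore not resolved for any member.

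The lung and kidney chips, 2 of each, differed in the balance of the 2 genomic clusters. Before scaling, the chromosome 6 members were brighter in lung than in kidney, by 2.60-fold for miR-141 and 2.69-fold for miR-200c. The chromosome 4 members had nearly equal signals, with lung over kidney at 0.959 for miR-200a and 1.06 for miR-200b. The lung chips were brighter as a whole, and the median ratio over the 81 miRNAs detected on all 4 chips was 2.08. The chromosome 6 members lay above that median, at places 25 (miR-141) and 24 (miR-200c) from the highest, and the chromosome 4 members far below it, at places 75 (miR-200a) and 69 (miR-200b). After quantile scaling, the ratio was 1.24 for miR-141 and 1.18 for miR-200c, but 0.587 for miR-200a and 0.618 for miR-200b, with a median of 0.950 for the 81 miRNAs. The split followed the cluster and not the seed, since each cluster holds 1 member of each seed.

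One by one, 0 of 4 members passed limma's test between lung and kidney (0 also at an unadjusted p under 0.05), where 27.7% of 112 miRNAs did. The log2 difference was -0.77 for miR-200a and -0.69 for miR-200b (standard errors 0.40 and 0.57, adjusted p = 0.221 and 0.417 from limma). It was 0.31 for miR-141 and 0.24 for miR-200c (standard errors 0.14 and 0.17, adjusted p = 0.180 and 0.343 from limma). The outcome depended on the processing. With the limit also set before scaling, which removes the low liver signals from the spread, miR-200a and miR-200b were lower in lung (adjusted p = 0.0206 for each). Without scaling, miR-141 and miR-200c were higher in lung, by 1.38 and 1.43 (adjusted p = 0.00396 and 0.00481), and miR-200b turned to 0.09 with no call. Both alternatives were chosen after seeing the data.

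The ratio of the clusters on 1 chip is not touched by a factor between chips. Its own level has no meaning, since different probes are not comparable, but its change between chips does. Before scaling, the mean log2 intensity of the chromosome 6 members minus that of the chromosome 4 members was -0.48 and -0.30 in young and elderly lung, and -1.77 and -1.79 in young and elderly kidney. Both lung chips lay above both kidney chips, by a mean of 1.39 (SD 0.13 in lung and 0.014 in kidney, n = 2 each), or 2.62-fold. After quantile scaling the difference was 1.01 (SD 0.23 in lung and 0.16 in kidney, n = 2 each), or 2.01-fold. Taken within seeds and before scaling, it was 1.44 for miR-141 against miR-200a and 1.34 for miR-200c against miR-200b. The difference was several times the spread between the chips of a tissue, but an exact permutation test of 2 chips against 2 cannot go below p = 0.333, the value it gave.

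**Figure D3:**
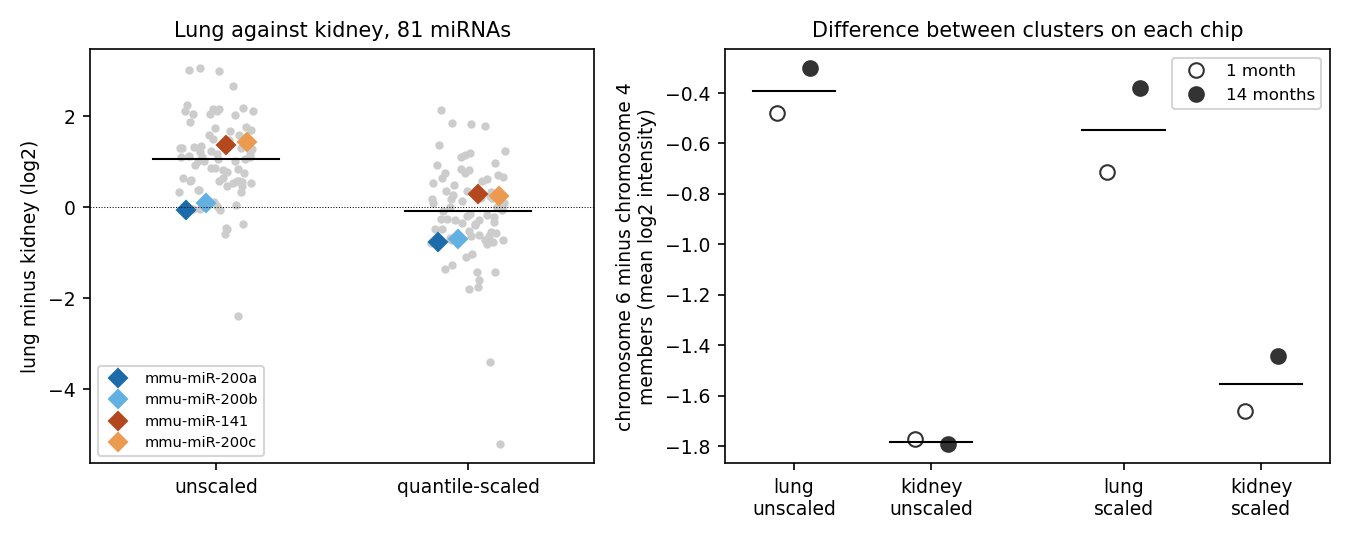
Left, log2 difference of lung minus kidney for the 81 miRNAs detected on all 4 chips, unscaled and quantile-scaled, with members as diamonds and the median as a line. Right, mean log2 intensity of the chromosome 6 members minus that of the chromosome 4 members on each lung and kidney chip, with lines at the tissue means; only differences between chips can be read. The lung chips lie above the kidney chips by 1.39 unscaled and 1.01 scaled.

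Between the ages, 0 of 4 members were called over the 4 tissues in limma (0 also at an unadjusted p under 0.05), where 7 of 112 miRNAs (6.25%) were called in either direction. The mean log2 difference, elderly minus young, was -0.48 (standard error 0.28, adjusted p = 0.498 from limma) for miR-200a and -0.56 (standard error 0.41, adjusted p = 0.595 from limma) for miR-200b. It was 0.07 (standard error 0.10, adjusted p = 0.757 from limma) for miR-141 and 0.04 (standard error 0.12, adjusted p = 0.917 from limma) for miR-200c. Tissues with both chips at the limit entered as no change. These p-values rest on how the 4 tissues vary, and hold nothing on how mice of an age vary. The values of miR-200a and miR-200b were -0.16 and -0.07 without the liver chips, whose signals were under the limit before scaling, and 0.04 and 0.09 with all chips unscaled.

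In lung and kidney, where all signals were well above the limit, no member passed 1.5-fold or fell below 0.5-fold, against 17.7% of 96 miRNAs detected in lung and 13.4% of 97 in kidney. In lung, the scaled intensity went from 78.2 to 97.0 units for miR-141 and from 45.4 to 58.2 units for miR-200c, or 1.24-fold and 1.28-fold. The chromosome 4 members were at 113 and 108 units (miR-200a, 0.960-fold) and at 84.2 and 88.1 units (miR-200b, 1.05-fold). In kidney, the fold was 0.966 for miR-141, 0.863 for miR-200c, 0.823 for miR-200b and 0.745 for miR-200a, which went from 218 to 163 scaled units. The median log2 difference over all detected miRNAs was -0.05 in lung and -0.07 in kidney. Before scaling, the 4 lung folds were between 1.25 and 1.45 and the 4 kidney folds between 0.850 and 1.02. With 1 chip per age, differences of this size have no test.

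**Figure D4:**
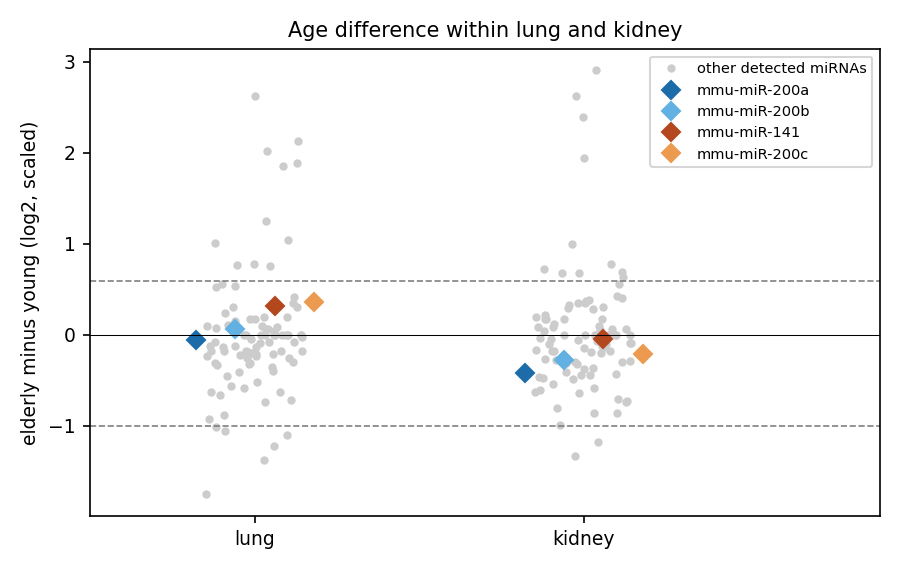
Log2 difference, elderly minus young, of quantile-scaled intensity in lung (96 miRNAs detected) and kidney (97), with members as diamonds; dashed lines mark 1.5-fold and 0.5-fold. Members lie between -0.06 and 0.36 in lung and between -0.42 and -0.05 in kidney, within both lines.

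In liver and heart, the elderly signal was the lower one for each member before scaling. All of these signals but the young heart miR-200a value were below the limit. How many of all probes went that way was not counted. The elderly heart chip was dimmer as a whole (summed intensity 20830 against 27907 units), and the elderly liver chip brighter (5472 against 3316). Scaled heart miR-200b went from 6.65 to 6.94 units, and scaled liver miR-141 was at 1.30 units on both chips. After scaling, the liver folds of miR-200a and miR-200b were 0.369 and 0.248, the latter with the elderly value at the limit, and both were below 0.5-fold (35.9% of 103 liver miRNAs were past 1.5-fold or 0.5-fold). They compare signals of 9.25 with 4.23 and of 8.42 with 3.19 units before scaling. Quantile scaling within the tissue gave log2 differences of -0.04 and 0 instead of -1.44 and -2.01, and no scaling gave 0 for both. Whether these miRNAs differ with age in liver is not resolved at this signal.

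Other miRNAs that are common in epithelia went both ways. Of 11 such miRNAs on the chip, 6 were tested. In lung and kidney 2 were higher and 2 lower, against 30 and 24 of all 112 tested. The median log2 difference of the 6 after scaling was -0.38. Before scaling, the 11 summed to 278 to 760 units over lung and kidney and 45.5 to 188 over liver and heart. The higher ones were miR-34b and miR-34c, known from ciliated airway cells, with 98.9 and 81.6 units in young lung, 344 and 285 units in elderly lung and at most 5.81 units in kidney. The lower ones were miR-194 and miR-192, known from gut and kidney epithelium, which were low in lung and present in both kidney and liver. The miR-194 intensity was 193 and 249 units in kidney, 81.1 and 128 in liver, and 12.3 and 11.0 in lung. The miR-192 intensity was 27.7 and 35.4 units in kidney, 15.4 and 25.2 in liver, and 3.56 and 4.25 in lung. The miR-192 probe is named because it was called. Before scaling, the miR-31 intensity was 55.8 units on both lung chips and at most 19.8 units elsewhere. Its log2 class difference after scaling, which raised the liver signals, was -0.91 (adjusted p = 0.0660 from limma).

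Markers of other cell types also differed between the tissue classes, where 30 of all 112 miRNAs tested were higher in lung and kidney and 24 lower. The summed intensity of the 2 endothelial miR-126 probes was 340 to 3296 units over lung and kidney and 40.9 to 1036 over liver and heart. Of these, miR-126-3p was called higher in the class of lung and kidney (log2 difference 0.87, adjusted p = 0.00351 from limma). The other, miR-126-5p, was not called (log2 difference 0.17, adjusted p = 0.259 from limma). Before scaling, miR-126-3p was lower in kidney (336 and 401 units) than in heart (1022 and 730), and highest in lung (2734 and 3259). The 3 smooth muscle and fibroblast miRNAs summed to 535 to 1985 units over lung and kidney and 45.0 to 1539 over liver and heart. Only 1 of them, miR-145, was called higher in that class (log2 difference 0.87, adjusted p = 0.0262 from limma). Its intensity before scaling was 195 and 225 units in kidney, below the 541 and 291 units in heart. The 5 leukocyte probes summed to 46.0 to 400 units over lung and kidney and 17.0 to 132 over liver and heart, and none of the 4 tested was called. The heart and skeletal muscle miRNAs, 4 of 5 tested, were all lower in lung and kidney (median log2 difference -3.17) and the hepatocyte miR-122a had a log2 difference of -3.85. Of 7 kidney miRNAs on the chip, 6 were tested, 4 higher and 2 lower. The lower ones were miR-194 and miR-192, given above, both brightest in kidney. Before scaling, miR-30a-5p was at 683 and 879 units in lung and 515 and 559 in kidney. Likewise miR-30a-3p was brighter in lung, at 39.9 and 47.4 units against 24.1 and 26.5 in kidney. The miR-10b intensity was 74.6 and 69.1 units in kidney and at most 16.5 units elsewhere. The 1 not tested, miR-204, was at most 2.72 units on any chip. The 3 neuronal probes were not tested, and their sum was at most 54.2 units on any chip. The part of these cell types in the family's values was not tested.

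Among 108 other tested miRNAs, the 5 whose log2 scaled intensity was most like the mean of the members over the 8 chips were let-7c, miR-30d, miR-103, miR-30a-5p and miR-26a. Pearson's r was 0.885 for let-7c, 0.824 for miR-30d, 0.735 for miR-103, 0.734 for miR-30a-5p and 0.733 for miR-26a. These are descriptions over chips that share tissues, and the choice depended on the scaling, since 1 of these 5 was among the 5 most similar without scaling (4 of 5 with Spearman's rho). The likeness was not one of size, since all 5 were above the limit on every chip. Nor was the order of the tissue classes shared by all 5. For miR-103, the lowest scaled lung and kidney value was 113 units and the highest liver and heart value 179. These were 397 and 451 units for miR-30a-5p, and both 475 for miR-30d. For let-7c (1045 and 846) and miR-26a (663 and 587), all lung and kidney values were the higher ones. The lowest let-7c intensity was 76.0 units, in liver, and its log2 class difference was 0.97 (standard error 0.11, adjusted p = 0.00417 from limma). Among the members themselves r over the 8 chips was between 0.887 and 0.999. It was highest for miR-141 with miR-200c and next for miR-200a with miR-200b (0.989), the pairs of a cluster. These values hold the contrast of high and low tissues, and miR-141 and miR-200c both stood at the limit on all 4 liver and heart chips. On the 4 lung and kidney chips alone, r was 0.937 for miR-141 with miR-200c and 0.989 for miR-200a with miR-200b. For pairs from different clusters it was negative there, between -0.75 and -0.46. These r values rest on 4 chips after quantile scaling. Whether their sign holds without scaling was not tested.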

How the data were processed

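The authors labelled small RNAs of each tissue with a fluorescent dye, hybridized them to Genopal-MICM chips (200 mouse miRNA probes), and gave the signal intensity in 2 deposited tables. The second lies below the first by 1 constant per chip (20.3 to 24.0 units), within rounding. The background step is not stated. That constant was subtracted from the first table, the 8 chips were quantile-scaled, signals under 10 units were raised to 10, and log2 was taken.

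A miRNA was tested if it reached 10 units after scaling on at least 4 chips or on both chips of 1 tissue. limma (version 3.58.1, R version 4.3.3) was fitted with tissue and age, with Benjamini-Hochberg adjustment within each contrast and a threshold of 0.05. The fit was tested on simulated data. Folds above 1.5 or below 0.5 were counted within a tissue. No sources say that chips came from separate mice, and p-values measure the spread between chips. The number of chips limits the precision.

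Members, miRNA lists and comparisons were chosen with earlier results of these data known. The miRNAs named are the members, miRNAs sharing their seeds, the 5 most similar by Pearson's r, and listed miRNAs in order of intensity. Others were named after their values were seen, where the text says so. Alternatives changed the input table, scaling, limit, filter, covariates, variance model and chips. Mature names on the chip carry no arm, and the 3p arm was taken as the one named.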

Additional observations from a re-analysis of the deposited data

Results flagged for a closer look

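After quantile scaling, the age difference of 3 members ran in opposite directions in lung and kidney. For miR-141 the log2 difference, elderly minus young, was 0.31 in lung and -0.050 in kidney. For miR-200b it was 0.064 and -0.28, and for miR-200c it was 0.36 and -0.21. There was 1 chip per age in each tissue, so the difference between lung and kidney was not tested. The other member, miR-200a, was at -0.06 and -0.42. The signs depended on the scaling. Without scaling, miR-141 was at 0.53 in lung and 0.027 in kidney, and miR-200a at 0.32 and -0.12. With median scaling, miR-200b was at -0.14 and -0.48. The signs of miR-200c stayed opposite, at 0.54 and -0.24 without scaling and 0.0038 and -0.66 with median scaling. The summed intensity before scaling was higher in the elderly sample of both tissues.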

How the results depend on the processing

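Over all alternatives, the class differences of the members gave 100 values, of which 100 were positive and 94 were called, between 0.65 and 4.16 on the log2 scale. Those not called were the 3 with tissue as a random block (miR-200a 3.06, miR-200b 2.95, miR-200c 2.24) and 3 of miR-200b with chips left out (2.77, 2.60 and 2.45). Over all fits with chips left out, called or not, miR-200b was between 2.45 and 3.45. The cause was not tested for any change given here. The count of miRNAs higher and lower in lung and kidney was 85 and 7 without scaling, 16 and 15 without a filter, 4 and 0 with class of tissue in the fit, and 1 and 0 with the random block (4 and 0 unadjusted). It was 18 higher with median scaling, 46 higher with the limit before and after scaling, and 14 lower with a limit of 30 units. With chips left out it was 10 to 36 higher and 12 to 30 lower.

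For age, with 4 higher and 3 lower, median scaling gave 6 lower, and no scaling or the methods' Student's test gave 0 lower (5 and 2 at an unadjusted p under 0.05). Without the filter, limma gave 0 and 0 (6 and 10 unadjusted). With chips left out, 0 to 2 were higher and 0 lower (8 to 13 unadjusted with 1 chip left out). The sign of the age difference turned for miR-200a (0.042) and miR-200b (0.087) without scaling, for miR-141 (-0.10) and miR-200c (-0.37) with median scaling, and for miR-200c with the 75th percentile (-0.049). With chips left out, it was -0.017 to 0.10 for miR-141 and -0.071 to 0.12 for miR-200c, negative without the lung chips, and none was called. Without scaling, miR-200b was at 0.086 in lung against kidney and miR-200a at -0.013 in liver against heart. The lung minus kidney difference of the clusters was 1.39 without scaling and with both scalings by a factor. No paired analysis by replicate number was possible because each tissue and age has 1 chip, and the age comparison had tissue as a block. Signal limits the liver and heart values, of which 1 of 16 reached 10 units.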
